A study of Mus musculus with 12 samples.

Results

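The baseline transcriptome described here is that of untransfected 4T1 cells, a line of mouse mammary tumour cells used as a model of spread to the lung. Its members are the 3 libraries of the group wt, taken by their labels out of 12 libraries in 4 groups. Per the labels, these cells carried no plasmid, had not been passaged in animals and had normal lung metastatic activity. The other groups, MYBup, mock and lung3 with 3 libraries each, are not analysed here. No group is set against another, so every value below is a level with its spread between libraries and no p-value is given. Separate cultures are not named in the labels of the 3 libraries, so the spread may be technical.

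The mammary gland is lined by luminal cells, which carry simple keratins and hormone receptors, over a basal layer of contractile cells with their own keratins. Carcinoma cells that leave the gland often carry genes of both epithelial and mesenchymal cells. They exchange signals with their surroundings through surface receptors, secreted factors and the integrins that hold them to the matrix.

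The libraries held 22171764, 24745660 and 20617046 counts for wt replicates 1 to 3. A level is given in TPM, a scaled transcript abundance, which is the count divided by the length of all exons of the gene and scaled to a sum of 1000000 per library. Of 22647 features with a length, 10577 stood at 1 TPM or more in each library, which is called detected here, and 8571 had 0 counts in all 3 libraries. Of 917 genes chosen in 41 lists, 569 were detected (62.0%), against 46.7% of all features. The share was 54.5% for lineage genes, 59.5% for receptors and 57.1% for adhesion genes. A count of 0 is reported as listed at 0, because it does not always mean a silent gene. For instance, mt-Co2 and mt-Co3, mitochondrial genes of the respiratory chain, were listed at 0, while mt-Co1 averaged 6172 ± 902 TPM (SD, n = 3, as throughout). Of 13 mitochondrial protein-coding features, 6 had under 3 counts in every library. Replicate 3 stood apart from the other 2 libraries for a minority of genes, among them Fn1, Spp1 and Krt14, so its values are given separately where they matter. In RNA from whole cultures, a low level in every cell and a high level in few cells cannot be told apart.

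By TPM over all exons, the transcript pool was led by Lgals1, which encodes the carbohydrate-binding protein galectin-1 (chromosome 15, 78926725 to 78930465, GRCm38). It stood at 23130, 24900 and 20316 TPM in replicates 1 to 3. Behind it came the elongation factor gene Eef1a1 at 18219 ± 709 TPM and the ribosomal protein gene Rplp1 at 14234 ± 936 TPM. The lowest library of Lgals1 was above the highest library of Eef1a1, so this order held in every library. S100a6 averaged 5910 ± 681 TPM and S100a4 5841 ± 380 TPM. Both belong to the S100 calcium-binding proteins, and S100a4 is known as a metastasis-associated gene. The level of S100a4 is uncertain, since 302 of its 584 exon bases are shared with the feature Gm42674 on the same strand, which stood at 7119 ± 482 TPM. Other members of the 20 most abundant features were the chaperone gene Hsp90ab1 at 7027 ± 86.1 TPM, the actin gene Actb at 6194 ± 187 TPM and Ptma at 4459 ± 332 TPM. The remaining features were mitochondrial genes (mt-Nd1, mt-Nd2, mt-Co1, mt-Cytb) and genes of the ribosome, its biogenesis and its elongation factors (Rps15, Rps4x, Rps3a1, Rpl4, Rplp0, Npm1, Eef2), between 3867 and 6339 TPM. Cytosolic ribosomal protein genes held 13.6 ± 0.865% of all TPM and galectins 2.33 ± 0.232%. The 100 most abundant features held 30.7 ± 1.05% of all TPM. By read count, which favours long transcripts, the 100 features with the most reads held 18.9% of the reads.

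Among lineage genes, the keratins of simple epithelium were high and those of the basal layer were low or listed at 0. Krt18 stood at 1836, 1917 and 2147 TPM in replicates 1 to 3 and its partner Krt8 at 1478, 1434 and 1664 TPM. These keratins pair into 1 filament, and the ratio of Krt18 to Krt8 was 1.29 ± 0.0472. Krt7, another keratin of simple epithelia, averaged 269 ± 49.1 TPM and Krt19, the keratin of ducts, 149 ± 10.4 TPM. Of the 5 simple keratins listed, only Krt20 was not detected. Krt14, a keratin of the basal layer, stood at 9.70, 12.1 and 24.5 TPM. It was thus highest in replicate 3, and Krt8 exceeded it 152-fold, 119-fold and 67.8-fold in replicates 1 to 3. Krt16 averaged 2.31 ± 0.987 TPM, while Krt5, the usual partner of Krt14, and the stress keratins Krt6a and Krt6b were listed at 0. For Krt5, 3 counts over the 3 libraries together would have been 0.0725 TPM. Such floors reflect counting error alone, because the reads carry no molecular identifiers and copies of 1 molecule cannot be recognised. Krt6a and Krt6b are near-identical copies, so reads that fit both could be missing from either.

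The 100 bases upstream of the RefSeq start are shown for the pair Krt18 and Krt8 and for the unread Krt5, neighbours on chromosome 15 (GRCm38.p6). They lie at chr15:102028116-102028215 on the plus strand, chr15:102004343-102004442 on the minus strand and chr15:101712906-101713005 on the minus strand, in that order. Capitals mark CpG dinucleotides, each sequence is written 5′ to 3′ in the direction of its gene, and here and below the RefSeq starts lay between 3 and 248 bases from those of GENCODE M21.
Krt18: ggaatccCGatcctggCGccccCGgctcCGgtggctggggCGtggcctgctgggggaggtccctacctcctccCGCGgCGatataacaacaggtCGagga
Krt8: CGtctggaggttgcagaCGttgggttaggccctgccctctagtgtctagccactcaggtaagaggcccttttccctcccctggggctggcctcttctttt
Krt5: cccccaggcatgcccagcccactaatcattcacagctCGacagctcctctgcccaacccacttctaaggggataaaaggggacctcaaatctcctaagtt
The stretch of Krt18 holds 9 CpG, that of Krt8 2 and that of Krt5 1. The detected pair therefore has unlike stretches, and in this count Krt8 is closer to the unread Krt5 than to Krt18. The RefSeq start of Krt8 lies 140 bases from that of GENCODE M21, against 36 for Krt18 and 7 for Krt5. The stretches may thus not be at like positions, and this comparison is uncertain.

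Of 18 luminal factors, 10 were detected and 6 were listed at 0. Xbp1, which drives the secretory machinery, averaged 71.7 ± 2.93 TPM and Gata3, a master regulator of luminal cells, 67.0 ± 1.68 TPM. Stat5b, a signal transducer of prolactin and growth hormone, averaged 32.1 ± 0.749 TPM, and the epithelial transcription factor genes Tfap2a and Elf3 29.5 ± 0.647 and 22.8 ± 1.10 TPM. Runx1, a core-binding factor gene, averaged 20.1 ± 2.26 TPM, with libraries that overlapped those of Elf3. Hormone receptors were low. Esr1, the gene of oestrogen receptor alpha, stood at 2.59, 2.69 and 2.60 TPM, or at a mean of 4.18 TPM when divided by the longest transcript instead of all exons, and Pgr, the progesterone receptor gene, was listed at 0. Foxa1, a cofactor of the oestrogen receptor, had 2.16 ± 0.794 TPM, and Elf5, the factor of milk-producing alveolar cells, was listed at 0 (both from the fixed marker list). Of 9 milk genes, only the casein gene Csn3 was detected, at 2.56 ± 0.778 TPM. The basal and myoepithelial list had 6 of 15 members detected, led by Vim, and its defining contractile and basal genes Acta2, Trp63, Myh11 and Oxtr were all below 1 TPM. Procr, a surface receptor of mammary progenitors, averaged 134 ± 7.73 TPM, and the progenitor factor gene Sox9 39.9 ± 2.18 TPM.

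Epithelial junction genes were present together with some mesenchymal genes. Of 33 genes of epithelial identity, 27 were detected and none was listed at 0. Cdh1, the gene of E-cadherin, stood at 339, 350 and 431 TPM. Cldn4, a tight junction claudin, averaged 216 ± 36.3 TPM, Lsr, a tricellular junction gene, 156 ± 7.38 TPM and Epcam, an epithelial adhesion gene, 134 ± 33.2 TPM. F11r and Tjp1, both of tight junctions, averaged 118 ± 1.60 and 109 ± 9.42 TPM. Libraries of Lsr, Epcam, F11r and Tjp1 overlapped from each gene to the next, so their order is not resolved. On the mesenchymal side, Vim, the intermediate filament gene of mesenchymal cells, stood at 2462, 2308 and 2621 TPM, 1.26 ± 0.0747 times the level of Krt18. That ratio depends on the length used. Divided by the longest transcript instead of all exons, Vim averaged 2945 TPM and Krt18 1450 TPM. Fn1, the fibronectin gene, had 386, 382 and 729 TPM, and replicate 3 stood alone above the others. Of the transcription factors that repress epithelial genes, Twist1 averaged 31.0 ± 2.41 TPM, Snai1 21.4 ± 3.11 TPM and Zeb2 12.4 ± 0.370 TPM. Zeb1, by contrast, had 0.119 ± 0.121 TPM. Cdh2, the gene of N-cadherin, was listed at 0, as were Twist2, Lum and Thy1. Of the 21 genes of the mesenchymal list, which does not hold Vim, 7 were detected, a lower share than the 46.7% of all features. The collagen genes of fibroblasts were not among them.

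Genes used to sort or mark mammary progenitors and tumour-initiating cells, most of them surface genes, were mostly present. Of 15 such genes, 10 were detected. Cd44, the receptor of hyaluronan, averaged 451.5 ± 32.8 TPM and Cd24a 439.5 ± 44.0 TPM, and their libraries overlapped. Bmi1, a Polycomb gene of self-renewal, averaged 130 ± 7.23 TPM. Prom1, another sorting marker, was listed at 0.

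**Figure D1:**
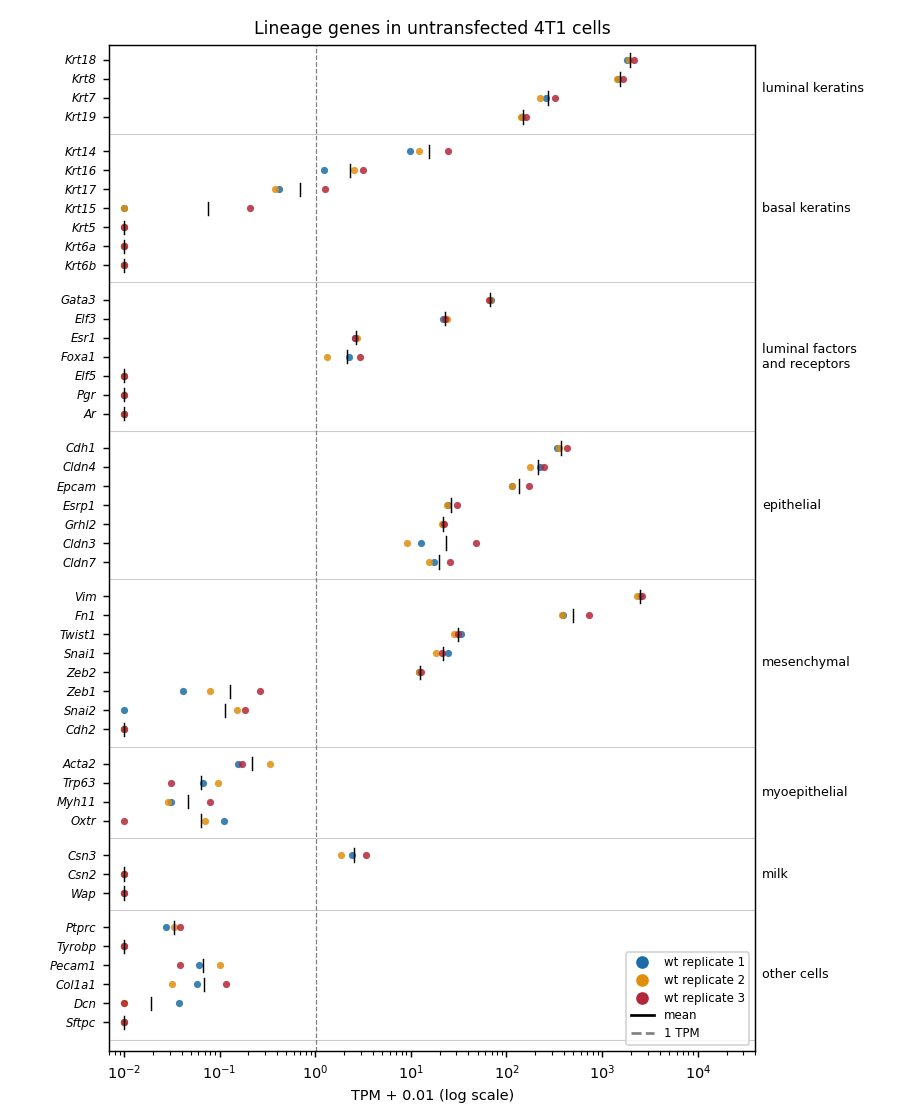
Levels of lineage genes in the 3 wt libraries (colours), in TPM plus 0.01 on a log axis; black ticks are means, the dashed line marks 1 TPM, and points at the left edge are listed at 0. Simple keratins, epithelial junction genes and Vim lie far to the right, while Krt5, Krt6a, Krt6b, Pgr and Cdh2 lie at the left edge and Krt14 and Cldn3 are highest in replicate 3.

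The label of mammary tumour cells was set against markers of other cell types. Of 8 luminal markers 6 were detected, with a summed level of 3532 to 4042 TPM. Most of that sum was Krt18 and Krt8, while Elf5 and Pgr were listed at 0. All 5 epithelial markers were detected. Of 5 mesenchymal markers Vim, Zeb2 and Twist1 were detected, with a summed level of 2349 to 2665.5 TPM over all 5. Of 7 basal markers only Krt14 was, with a summed level of 10.4 to 26.0 TPM. The 6 leukocyte markers summed to between 0.0174 and 0.0518 TPM, and Cd3e, Cd79a, Adgre1 and Tyrobp were listed at 0. The 4 endothelial markers summed to between 0.149 and 0.352 TPM. Of the fibroblast markers Pdgfra was detected at 9.37 ± 1.31 TPM, but Dcn, Lum, Col1a1 and Col3a1 lay at or near 0. Surfactant genes and haemoglobin genes were listed at 0. In the wider leukocyte list, Cd14 and Cd68, genes of macrophages that other cells can also express, were detected at 14.95 ± 1.38 and 14.7 ± 2.69 TPM.

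Receptor tyrosine kinases pass growth signals across the membrane, and 26 of 47 listed genes were detected. Axl, the receptor of Gas6 (chromosome 7, 25757273 to 25788705), stood at 990, 967 and 966.5 TPM. It held 48.2% of the summed level of the family. Epha2, an ephrin receptor gene, averaged 288 ± 19.3 TPM and Met, the receptor of hepatocyte growth factor, 157 ± 11.1 TPM. Ryk, a Wnt co-receptor, averaged 155 ± 3.97 TPM and overlapped Met, so the order of these is not resolved. The collagen receptor gene Ddr2 had 80.0 ± 14.4 TPM and the planar polarity gene Ptk7 77.4 ± 6.43 TPM, again with overlapping libraries. Erbb2, the gene amplified in a class of human breast cancers, stood at 36.6, 36.2 and 34.6 TPM, and Axl exceeded it 27.2 ± 0.624-fold. Egfr, the epidermal growth factor receptor gene, was just inside the detected range at 1.53 ± 0.372 TPM, and Erbb3 had 8.58 ± 0.320 TPM (both chosen after their values were seen). The 14 genes listed at 0 included Erbb4, Kit, Fgfr1 and the endothelial receptor gene Kdr.

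Upstream stretches of 100 bases are shown for the highest member, Axl, and for Kdr, which had no read. They lie at chr7:25788734-25788833 and chr5:75978456-75978555, both on the minus strand (RefSeq, GRCm38.p6), and capitals mark CpG.
Axl: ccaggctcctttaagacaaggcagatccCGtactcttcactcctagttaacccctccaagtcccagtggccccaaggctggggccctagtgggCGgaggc
Kdr: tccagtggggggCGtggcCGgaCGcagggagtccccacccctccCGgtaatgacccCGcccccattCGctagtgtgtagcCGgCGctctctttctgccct
The stretch of Axl holds 2 CpG and that of Kdr 8. In the longer RefSeq window, 250 bases before to 50 after the start, Axl has 6 CpG and Kdr 19.

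Promoter windows were also counted over lists and over the table, with no test. The measure was the ratio of CpG dinucleotides (the letters CG, which read the same on both strands) to the number that the window's C and G content would give, with 0.6 or more called high. Over 16253 matched promoter windows, 78.9% of those of detected genes were high (6586 of 8346), 32.6% of those between (779 of 2393) and 882 of 5514 of those listed at 0, against 50.7% of all windows. Among receptor tyrosine kinases, 11 of 24 windows of detected genes were high, against 10 of 11 windows of genes listed at 0. For detected cytokine receptors (13 of 24) and detected genes of epithelial identity (9 of 16), the share was also below the 78.9% of all detected genes. Both shares were above the 50.7% of all windows. Among genes listed at 0 in other lists, high windows numbered 2 of 5 for cytokine receptors, 0 of 8 for CC chemokines and 0 of 6 for milk genes. The 1 window of a basal keratin gene listed at 0 was not high. Within the detected genes of the whole table, the share was 70.4%, 80.9% and 85.4% from the lowest to the highest of 3 equal classes of level. These are counts of letters in windows, and nothing was measured at the promoters themselves.

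Other receptor families were led by 1 or a few members. Of 46 cytokine and chemokine receptors 29 were detected, and Tnfrsf12a, the receptor of the cytokine TWEAK, stood at 504, 382 and 528 TPM, lowest in replicate 2. It was followed by Ltbr, the lymphotoxin receptor gene, at 79.4 ± 5.25 TPM, the CXCL12-scavenging receptor gene Ackr3 at 74.9 ± 3.26 TPM and the tumour necrosis factor receptor gene Tnfrsf1a at 66.4 ± 6.01 TPM, whose libraries overlapped in turn. Il13ra1 and Il6st, the signalling chain shared by receptors of the interleukin 6 family, averaged 56.5 ± 7.58 and 51.6 ± 2.01 TPM. Of 12 receptors of the TGF-beta and BMP family 10 were detected, led by Bmpr1a at 109 ± 2.07 TPM and Tgfbr2 at 102 ± 5.62 TPM. Among 22 receptors of Notch, Wnt and hedgehog signals 16 were detected, led by Smo, the hedgehog signal transducer, at 89.6 ± 8.38 TPM and the Wnt receptor gene Fzd6 at 88.3 ± 9.93 TPM. Of 27 G-protein-coupled receptors 11 were detected. Gprc5a, a retinoic acid-induced gene, averaged 220 ± 2.40 TPM and the thrombin receptor gene F2r 154 ± 10.6 TPM. Among 27 nuclear receptors 16 were detected, and the top members Nr3c1, the glucocorticoid receptor gene, at 41.6 ± 2.25 TPM and the retinoid X receptor gene Rxra at 41.3 ± 2.46 TPM overlapped. Igf2r, which clears insulin-like growth factor and sorts lysosomal enzymes, had 86.8, 91.3 and 130.4 TPM, highest in replicate 3.

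Setting ligands beside their receptors, 23 of 47 pairs had both genes detected, 17 only the ligand, 5 only the receptor and 2 neither. The pairs were drawn up after the values had been seen. Axl had no counts of its ligand Gas6 beside it and 3.39 ± 0.478 TPM of the weaker ligand gene Pros1. Met likewise had no counts of Hgf, and Tnfrsf12a none of its ligand gene Tnfsf12, although Tnfsf12 shares 731 of its 1515 exon bases with another feature on the same strand. The ligands of the epidermal growth factor receptor differed widely. Hbegf averaged 132 ± 14.9 TPM, Areg 92.4 ± 7.82 TPM, Tgfa 48.9 ± 2.64 TPM and Btc 4.13 ± 1.18 TPM, while Egf and Epgn were not detected and Ereg was listed at 0. Hbegf exceeded Egfr 89.7 ± 22.4-fold. Colony-stimulating factors and neutrophil chemokines came without their receptors, since Csf1 had 153 ± 15.4 TPM and Csf1r 0.0847 ± 0.0631 TPM, and Csf3r and Kit were listed at 0 beside 58.6 ± 9.44 TPM of Csf3 and 43.3 ± 2.73 TPM of Kitl. Pairs with both genes detected included the protease gene Plau, at 400.5 ± 56.2 TPM, with its receptor gene Plaur at 196 ± 18.6 TPM, and Efnb2 at 89.2 ± 9.70 TPM with Ephb4 at 64.0 ± 1.03 TPM. Wnt7b, at 100.4 ± 8.50 TPM, stood beside its receptor gene Fzd7 at 37.9 ± 1.31 TPM.

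**Figure D2:**
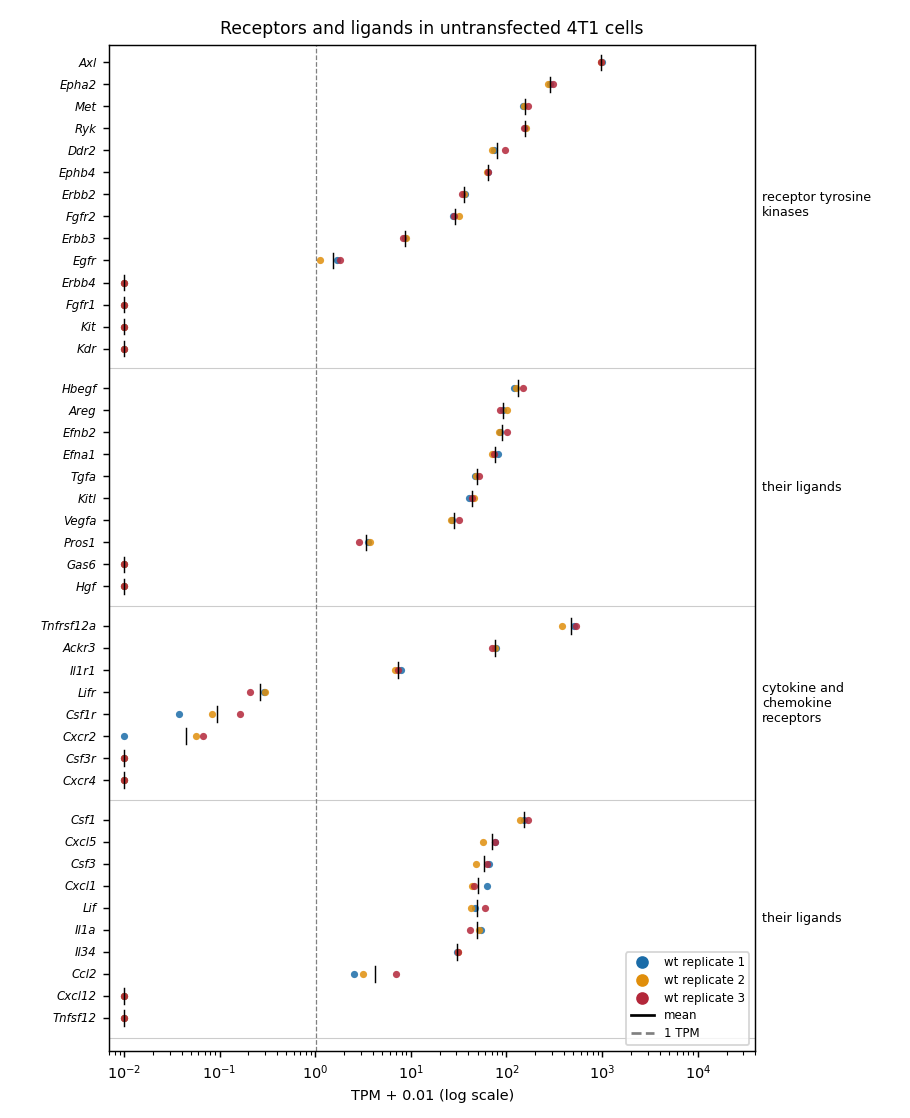
Levels of receptors and of ligands in the 3 wt libraries (colours), in TPM plus 0.01 on a log axis, with means as black ticks and 1 TPM as a dashed line. Axl lies near 1000 TPM with its 3 libraries on top of each other, whereas Gas6, Hgf, Csf3r, Kit and Cxcr4 lie at the left edge, listed at 0.

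Of 138 oncogenes, cell cycle genes and tumour suppressors 124 were detected (89.9%). All 18 cell cycle genes were detected. Ccnd1, the gene of cyclin D1, stood at 1715, 1676 and 1766 TPM, although 1100 of its 4709 exon bases overlap the gene LTO1 on the opposite strand and whether strand was used in counting is not given. It exceeded Ccnd2 19.7 ± 0.522-fold. Ccna2, Cdk4 and the proliferation marker gene Mki67 averaged 488 ± 16.8, 435 ± 13.8 and 273 ± 36.4 TPM. Ctnnb1, the gene of beta-catenin, had 754 ± 27.4 TPM. The chromatin genes Hmga1 and Hmga2, of which Hmga2 is normally expressed mainly before birth, averaged 339 ± 13.8 and 209 ± 4.06 TPM. In the RAS pathway 21 of 22 genes were detected, with the kinase gene Akt1 at 480.5 ± 15.4 TPM and the RAS gene Nras at 231 ± 18.0 TPM.

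Of 23 transcription factor genes of the MYC, MYB, AP-1 and ETS families, 22 were detected. Myc stood at 314, 289 and 332 TPM. Fosl1, an AP-1 gene, averaged 266 ± 18.4 TPM, but 1163 of its 2033 exon bases overlap Ccdc85b on the opposite strand, so its counts are uncertain. Fos itself, a rapid-response gene, had 5.35, 10.6 and 12.3 TPM (named after its values were seen). The ETS genes Elk3 and Ets1 averaged 184 ± 14.8 and 182 ± 16.4 TPM and could not be ordered. Myb (chromosome 10, 21124935 to 21160984), the gene that the study overexpresses in another group, was low, at 94, 120 and 120 counts or 1.68, 1.92 and 2.37 TPM. Its relative Mybl2, which acts in dividing cells, exceeded it 30.4 ± 5.92-fold. The level of Myb depends on the length used, as it was 3.54 TPM when divided by the longest transcript instead of all exons.

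Among 36 tumour suppressors 30 were detected. Smad4, the shared transducer of TGF-beta signals, averaged 116 ± 3.77 TPM and the cell cycle inhibitor gene Cdkn2c 114 ± 8.49 TPM, with overlapping libraries. Trp53, the gene of p53, stood at 38.1, 32.2 and 35.6 TPM. The 5 genes listed at 0 were Cdkn2a, Cdkn2b, Cdkn1c, Axin2 and Fhit. Cdkn2a encodes the inhibitor p16 and, in another reading frame, the p53 activator ARF, and Cdkn2b lies next to it. Their floors, 3 counts over the 3 libraries, would be 0.136 and 0.115 TPM.

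Next to Cdkn2a (chromosome 4, 89274471 to 89294653) lay 1 of the more abundant genes of these cells. Mtap, a methionine salvage gene (chromosome 4, 89137122 to 89181081), stood at 871, 845 and 987 TPM, above 98.6% of detected features. On the other side of the pair, Dmrta1, Elavl2, Izumo3 and Tusc1 were listed at 0, Zfp352, between Dmrta1 and Elavl2, had 1, 6 and 9 counts, and the nearest gene detected in that direction was Gm12666. Farther out, Caap1 averaged 12.9 ± 0.814 TPM and Plaa 90.1 ± 5.0 TPM, and on the Mtap side Klhl9 averaged 73.3 ± 3.82 TPM. Mtap therefore exceeded Klhl9 12.3 ± 1.60-fold. Between Mllt3 and Plaa, 35 of 48 protein-coding features had no count, against 7571 of 21452 over the table. Most of these 35 were type I interferon genes and unnamed models among them. The 17 type I interferon genes there had 1 count in all. Copy number was not measured, so a lost region and an unread region cannot be told apart.

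Upstream stretches are shown for Mtap, the high gene at this edge, and for Cdkn2b, listed at 0 beyond it, at chr4:89137270-89137369 on the plus strand and chr4:89311033-89311132 on the minus strand (RefSeq, GRCm38.p6), with CpG in capitals.
Mtap: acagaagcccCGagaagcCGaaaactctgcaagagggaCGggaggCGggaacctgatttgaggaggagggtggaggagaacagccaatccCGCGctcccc
Cdkn2b: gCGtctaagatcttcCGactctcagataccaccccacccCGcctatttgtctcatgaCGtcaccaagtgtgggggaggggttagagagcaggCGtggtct
They hold 6 and 5 CpG, so the unread gene and its high neighbour differ little in this count. The RefSeq start of Mtap lies 248 bases inside the gene as placed by GENCODE M21, so its stretch falls within that gene. For Cdkn2b the 2 starts lie 7 bases apart, so the stretches are not at like positions.

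**Figure D3:**
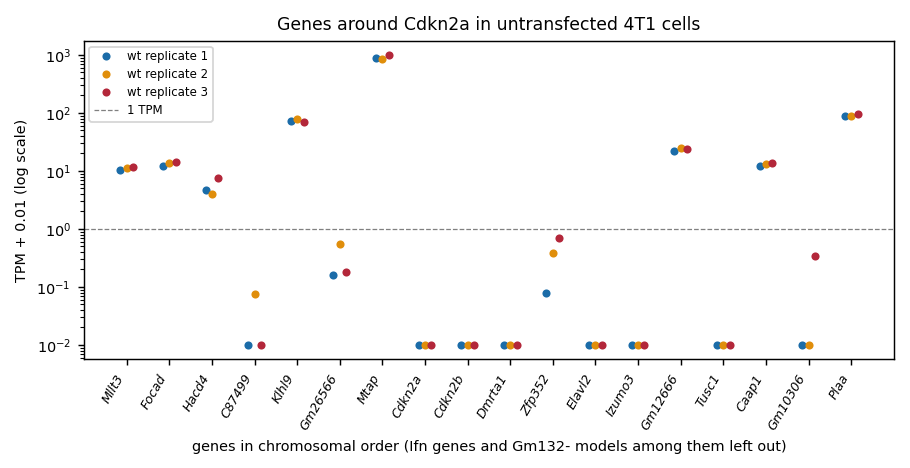
Levels of the genes around Cdkn2a, in chromosomal order, in TPM plus 0.01 on a log axis, for the 3 wt libraries (colours); genes of the interferon cluster and unnamed models among them are left out, and the dashed line is 1 TPM. Mtap stands at 845 to 987 TPM directly beside Cdkn2a and Cdkn2b, which lie at the bottom edge with Dmrta1, Elavl2, Izumo3 and Tusc1.

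Of 233 genes of secreted factors 110 were detected (47.2%), a share near that of all features. The cytokine list was led by Mif, a migration inhibitory factor gene, at 1574, 1241 and 1452 TPM. It held 65.5% of the list's summed level, ahead of the chromatin protein and alarmin gene Hmgb1 at 205 ± 6.64 TPM and the macrophage growth factor gene Csf1. Csf3, the granulocyte growth factor gene, stood at 65.4, 47.9 and 62.7 TPM. Tslp averaged 61.7 ± 10.1 TPM and Lif 49.6 ± 8.38 TPM, and these overlapped Csf3, so the 3 are not ordered. Among growth factors, 18 of 43 were detected, led by Hdgf, a nuclear protein gene despite its name, at 931 ± 15.9 TPM. The growth factor precursor gene Grn averaged 151 ± 9.73 TPM and Angptl2 123 ± 8.38 TPM. Of the developmental ligands Bmp1, a procollagen protease, averaged 104 ± 3.76 TPM, Wnt7a 53.6 ± 6.70 TPM and Tgfb3 28.2 ± 2.62 TPM.

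Of 16 CXC-type and related chemokines 6 were detected. Cxcl5, which draws neutrophils, stood at 75.7, 57.3 and 76.4 TPM, Cxcl16 at 43.8, 42.7 and 65.9 TPM, and Cxcl1, likewise, at 62.7, 43.1 and 45.7 TPM. These overlapped, and Cx3cl1, which draws monocytes, averaged 41.9 ± 4.28 TPM and overlapped Cxcl1. Cxcl2 and Cxcl3, which also draw neutrophils, were not detected. Of 19 CC chemokines 5 were detected and 11 were listed at 0. Ccl2, which also draws monocytes (chromosome 11, 82035571 to 82037453), had 18, 25 and 45 counts, or 2.52, 3.13 and 6.96 TPM, highest in replicate 3. Ccl5, which draws lymphocytes, had 3.82, 4.31 and 13.4 TPM with the same library highest, and Ccl20 averaged 3.72 ± 0.733 TPM.

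Outside the cytokines, the innate defence list held very high members beside ones listed at 0. Wfdc2, a protease inhibitor gene known as a marker of human ovarian cancer, averaged 1817 ± 59.9 TPM and the anti-inflammatory annexin gene Anxa1 1340 ± 98.4 TPM. Spp1, the gene of osteopontin, stood at 759, 757 and 1242.5 TPM, highest in replicate 3. Some 309 of its exon bases are shared with another feature on the same strand. Lgals3, another galectin gene, averaged 473 ± 29.4 TPM, and Mfge8, which bridges dying cells to phagocytes, 113 ± 6.88 TPM. Of the 30 genes 10 were detected and 10 were listed at 0.

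Matrix proteases and their inhibitors were mostly present, with 35 of 44 genes detected. The lysosomal protease genes Ctsl and Ctsz averaged 735 ± 28.7 and 424 ± 10.8 TPM, and the inhibitor gene Cstb 411 ± 43.3 TPM. Exons of Ctsl overlap another feature over 1742 bases on the opposite strand, so its counts are uncertain. Mmp3, a matrix metalloprotease gene, stood at 433, 493 and 299 TPM, lowest in replicate 3. Plau, the urokinase gene, had 370, 366 and 465 TPM, and the metalloprotease inhibitor gene Timp2 averaged 395 ± 10.7 TPM. From Ctsz to Timp2 the libraries of each gene overlapped those of the next. Mmp9, a gelatinase gene, went the other way from Mmp3, with 17.8, 20.1 and 51.5 TPM, so the ratio of Mmp3 to Mmp9 was 24.3, 24.5 and 5.80 in replicates 1 to 3.

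Among the integrin genes, Itgb1 and Itga3 were the highest. Itgb1, the beta chain shared by many integrins, stood at 1417, 1523 and 1614 TPM and Itga3, the alpha chain of a laminin receptor, at 1075, 1084 and 1115 TPM. Their ratio was 1.39 ± 0.0656, and the lowest library of Itgb1 was above the highest of Itga3. Itga6, the alpha chain of another laminin receptor, averaged 173 ± 24.1 TPM, and Itga3 exceeded it 6.41 ± 0.990-fold. Itgav averaged 124 ± 6.34 TPM, Itgb5 70.1 ± 3.50 TPM and Itga2, the alpha chain of a collagen receptor, 59.8 ± 10.6 TPM. In all 13 of 25 integrin genes were detected, and Itga4 and Itgax, chains of leukocyte integrins, were listed at 0. Itgb2, the beta chain of leukocyte integrins, was detected at 25.8, 22.0 and 58.0 TPM, highest in replicate 3.

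Among the other 50 adhesion genes of the surface, 29 were detected. The tetraspanin genes Cd9 and Cd63 averaged 736 ± 36.4 and 475 ± 16.5 TPM, with a ratio of 1.55 ± 0.0235. Sdc4, a heparan sulphate proteoglycan of focal adhesions, averaged 509 ± 18.6 TPM and overlapped Cd63, which overlapped Cd44. The tetraspanin gene Cd151, a partner of laminin-binding integrins, averaged 223 ± 15.9 TPM.

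Of 51 matrix genes 30 were detected. Ccn1, a matrix signal and target of YAP, averaged 548 ± 25.9 TPM, and Thbs1, the thrombospondin gene, 410 ± 60.8 TPM. Fbln2 averaged 280 ± 44.9 TPM and Col4a1, a collagen of basement membranes, 276 ± 11.2 TPM. Each laminin is built of an alpha, a beta and a gamma chain, and at least 1 gene of each kind was high, with Lama5 at 170 ± 15.1 TPM, Lamb1 at 216 ± 6.51 TPM and Lamc1 at 210 ± 5.63 TPM (named after their values were seen). Lamb3 and Lama3, chains of the laminin that anchors epithelia, had 41.5 ± 4.48 and 12.5 ± 2.84 TPM. Lama5 exceeded Lama3 14.2 ± 3.92-fold. The fibrillar collagen genes Col1a1 and Col3a1 averaged 0.0592 ± 0.0438 and 0.00598 ± 0.0104 TPM.

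**Figure D4:**
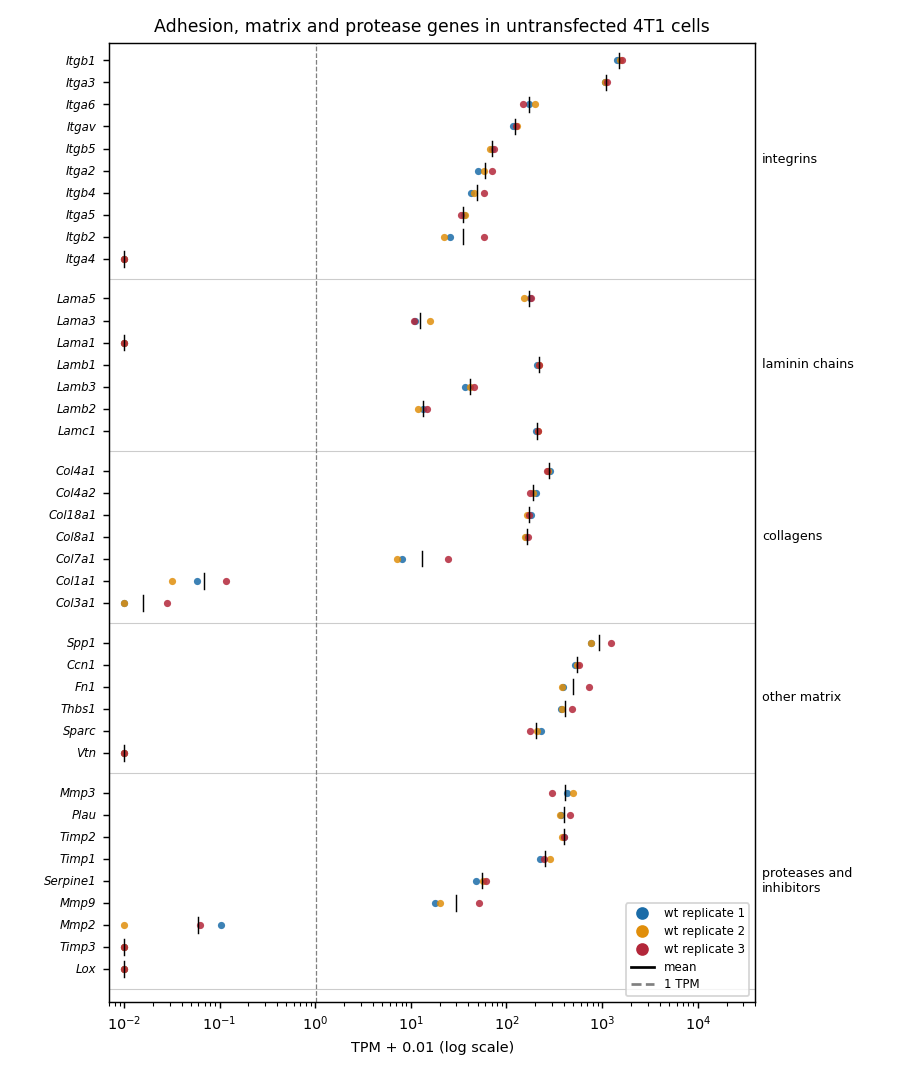
Levels of integrin, laminin, collagen, other matrix and protease genes in the 3 wt libraries (colours), in TPM plus 0.01 on a log axis, with means as black ticks and 1 TPM as a dashed line. Itgb1 and Itga3 stand above 1000 TPM, and Fn1, Spp1, Col7a1, Mmp9 and Itgb2 show replicate 3 to the right of the other 2 libraries, while Mmp3 shows it to the left.

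The spread between the libraries was small for most genes. The common biological coefficient of variation was 0.0855 over 11007 features, which is the typical relative spread beyond counting error. Without replicate 3 it was 0.0564, and without replicates 1 and 2 it was 0.103 and 0.0931. Among the 9505 features with a mean of at least 5 CPM (counts scaled to 1000000 per library with TMM factors), 86 were at least 1.5-fold higher in replicate 3 than in both other libraries (0.905%) and 23 at least 1.5-fold lower (0.242%). By the same rule replicate 1 had 1 feature higher and 1 lower, and replicate 2 had 3 higher and 28 lower. What set replicate 3 apart was not tested.

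The features with the largest spread were mostly high in replicate 3. Cldn3, a claudin gene, had 4.55, 3.28 and 16.2 CPM in replicates 1 to 3, and the complement gene C3 5.91, 7.05 and 25.0 CPM. Col7a1, the collagen of anchoring fibrils, had 23.4, 20.9 and 67.6 CPM. The same library was highest in Rasef, Podnl1, Cp, Syt13, Matn2, Mmp9, Akap12, Lcp1, Txnip, Itgb2 and Car9, the hypoxia-responsive carbonic anhydrase gene at 13.1, 13.2 and 31.0 CPM. It was lowest in Prl2c3, a gene of the proliferin family with near-identical copies, at 6.72, 12.1 and 1.53 CPM, and in Nol4l, Serpinb2 and Pex2. Pex2, a gene of peroxisome assembly, had 155, 170.5 and 68.7 CPM. In Ccdc85b and Gm27021, which overlap other features, the low value of replicate 2 made most of the spread.

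**Figure D5:**
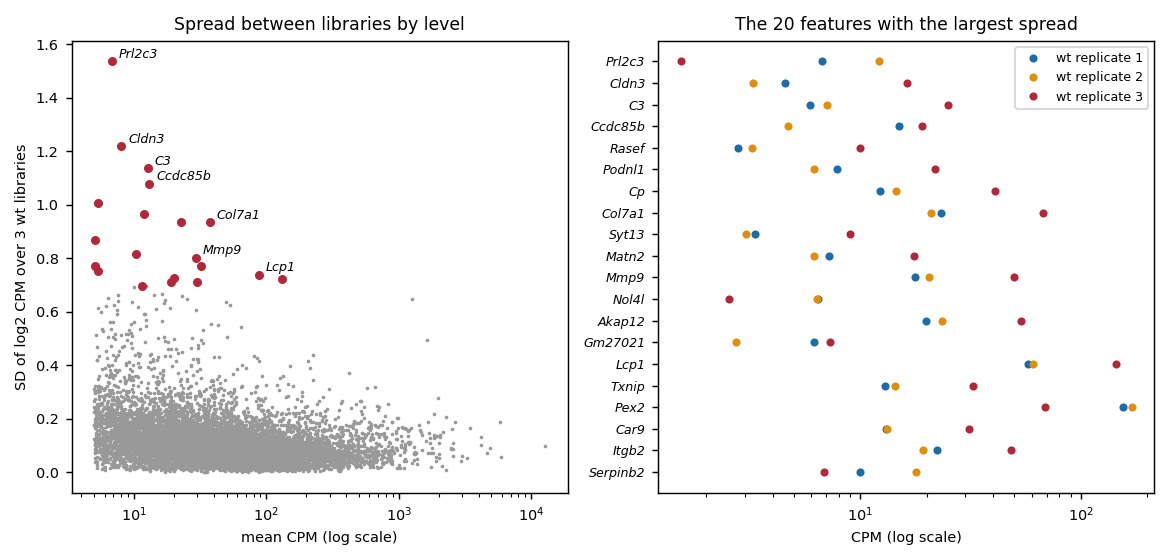
Left, SD of log2 CPM over the 3 wt libraries against the mean CPM on a log axis, for 9505 features with a mean of 5 CPM or more, with the 20 largest in red. Right, CPM of these 20 in each library on a log axis; replicate 3 lies to the right of the other 2 libraries in 16 of them and to the left in 4.

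Some gene groups moved together between the libraries, as lists chosen with earlier results of these data known. Of 11 interferon response genes above the CPM minimum, replicate 3 was highest in all 11, against 3527 of all 9505 features. Their median difference between replicate 3 and the mean of the others was 0.59 on the log2 scale, against -0.004 over all features. Bst2, an antiviral membrane gene, had 56.5, 48.8 and 98.1 TPM, and Ifit2 10.7, 11.4 and 22.8 TPM. For antigen presentation by MHC class I the count was 8 of 8 and the median 0.51, with B2m, the light chain gene, at 1731, 1725 and 2463 TPM. The 2 lists share Psmb8, Tap1 and Psmb9, genes of peptide processing and transport. Psmb9 lay below the CPM minimum, so the 2 counts share only Psmb8 and Tap1. For the cell cycle genes, replicate 3 was highest in 5 of 18. Other lists lay on both sides. The same library was highest in 20 of 30 matrix genes, 17 of 24 genes of epithelial identity and 13 of 17 rapid-response genes. For hypoxia and glycolysis genes the count was 6 of 23, and for the other surface adhesion genes 6 of 27. Genes of cholesterol synthesis were lowest in replicate 2, with summed levels of 1776, 1370 and 1955 TPM in replicates 1 to 3.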

How the data were processed

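Per the labels' protocols, RNA from an RNeasy Plus column went into TruSeq RNA libraries. The values deposited by the authors are raw gene counts without normalization, in which 1066 wt values of more than 4 digits keep only 4 significant digits, a change of at most 0.05%. The submitters' processing notes name STAR, the build GRCm38 and edgeR. What tool counted the reads, whether it used strand and on which annotation is not given in the sources used here.

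Of 22880 features, 22647 matched GENCODE M21 by identifier; the other 233 held 0.222 to 0.232% of the counts. TPM was the count over merged exon length, scaled to 1000000 per library. CPM used TMM factors. The common coefficient of variation came from edgeR 4.0.16 in R 4.3.3 (intercept only, filterByExpr), in code tested on simulated data. Promoter sequences are from RefSeq (GRCm38.p6). Figures used Python 3.11.15 and matplotlib 3.10.9. A chi-square per feature of 6.33 to 16.8 between library pairs was more than sampling noise, so none was treated as a repeat deposit of another; this does not show separate cultures.

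The members and lists were chosen with earlier results of these data known. The named genes are the 20 with the highest TPM, the 6 highest of each list, defining markers at any level, and the 20 with the largest SD of log2 CPM among means of 5 CPM or more. Some genes taken by this rule are not reported here. Every other gene named was singled out after its values were seen. Neighbours in an ordered list are called overlapping where the lowest library of the higher gene lies at or below the highest of the lower. Other lengths, totals, factors, thresholds and left-out libraries were tried. Listed genes without a match (Cxcl11, Flt3l, H2-L, Mx2, Tsix, Xist) are not analysed here.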

Additional observations from a re-analysis of the deposited data

How the results depend on the processing

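No paired analysis was possible because a single group was described and no test was made. The number of detected features was 10962 at 0.5 TPM, 10086 at 2 TPM and 10560 at 1 CPM, and 10521 to 10641 with another length or without 1 library. For the listed genes, whose threshold was not varied, it was 563 to 577 with another length, another total or without 1 library. Over the table, 11737 features reached 0.1 TPM and 7918 reached 10 TPM in each library. Leaving out each library in turn gave a share of 30.2 to 31.2% of TPM for the 100 most abundant features and a common coefficient of variation of 0.0564 (without replicate 3) to 0.103. By read counts the share was 18.9%. The coefficient was 0.0854 with RLE factors, 0.0875 with no factor and 0.0858 without a filter. Dividing by the longest transcript changed the TPM of 34 named genes by a factor of 0.737 to 1.78, and 23 of them by more than the spread between libraries, so levels of different genes are less certain than the SD shows. A total without mitochondrial genes moved 6 of 34 levels by more than that spread. Leaving out a library moved 0 of 102, but leaving 1 of 3 libraries out cannot move a mean by as much as the SD. That count is therefore no check on single libraries. Cldn3, for instance, averaged 23.1 TPM over the 3 libraries and 10.9 TPM without replicate 3. Exons of 219 of 636 detected genes in all lists, those drawn up later included, overlap another feature, and in 25 the overlap is 20% of the exon length or more. Counts of these genes are uncertain where the strand setting is not given.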

Other observations

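Further gene families, most of them drawn up after the values had been seen, are given as values only. Among genes of glycolysis, Pkm, the pyruvate kinase gene, averaged 2989 ± 188 TPM and Ldha, the lactate dehydrogenase gene of glycolytic tissue, 2686 ± 219 TPM, while Ldhb, the form of oxidative tissue, had 4.07 ± 1.62 TPM. Of 4 glucose transporter genes only Slc2a1 was detected, at 137 ± 6.90 TPM. The hexokinase genes Hk1 and Hk2 were alike, with a ratio of 1.03 ± 0.0321. All 26 genes of the hypoxia and glycolysis list were detected. The membrane-cytoskeleton linkers were also all detected, with Msn at 1152 ± 140 TPM, Ezr at 523 ± 26.9 TPM and Rdx at 284 ± 13.4 TPM. Of 9 annexin genes all 9 were detected, and Anxa5, Anxa2 and Anxa1 each stood above 1000 TPM.

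Ptgs2, the inducible cyclooxygenase gene, stood at 373, 421 and 470 TPM, against 8.69 ± 1.60 TPM of the constitutive Ptgs1, and Hpgd, which breaks prostaglandins down, was listed at 0. Among genes that restrain T cells, Nt5e, the ectonucleotidase gene, had 71.5, 72.6 and 120.7 TPM, highest in replicate 3. Cd276 averaged 72.5 ± 10 TPM, but Cd274, the gene of PD-L1, had 2.11, 1.06 and 2.63 TPM, and Cd80, Cd86 and Ido1 were listed at 0. Csf2, the granulocyte-macrophage colony-stimulating factor gene, had 0.597, 0.713 and 5.06 TPM, so replicate 3 alone brought it past 1 TPM. The AP-1 genes Jund and Junb were lowest in replicate 2. Jund had 161.5, 83.3 and 169.5 TPM in replicates 1 to 3 and Junb 135.3, 84.95 and 158.7 TPM. Fos and Egr1, rapid-response genes like Junb, were instead lowest in replicate 1, with 5.35, 10.6 and 12.3 TPM of Fos and 22.0, 31.5 and 49.1 TPM of Egr1. The counts of Jund are uncertain, since 877 of its 1668 exon bases overlap another feature on the opposite strand.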
